A study of Mus musculus with 16 samples.

Results

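The proteasome genes were followed across the hippocampus of newborn and juvenile WT and Mef2c-het mice. The members are the probes whose symbol begins with Psma, Psmb, Psmc, Psmd, Psme or Psmf1 and whose detection p-value, which sets a probe against the array's negative control beads, was under 0.05 on at least 4 of the 16 arrays. Of 25697 probes on the array, 62 probes of 42 genes carried such a name, and 55 probes of 39 genes were detected. Of the 55 members, 48 were detected on all 16 arrays and 7 on 4 to 15. The prefix also caught a pair of genes that encode no subunit of the standard particle. Psmc3ip encodes a meiotic recombination factor that was named for its binding to a proteasome ATPase, and Psme2b is a further gene copy related to Psme2. They are kept apart below.

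The proteasome is the main protease for proteins that carry a ubiquitin chain. Its core particle is a barrel of outer alpha rings, which gate the entrance, and inner beta rings, in which Psmb5, Psmb6 and Psmb7 encode the proteolytic sites. The regulatory particle caps the barrel. Its base holds a ring of ATPases that unfold the substrate, and its lid removes the ubiquitin chain. After interferon signalling the catalytic subunits can be replaced by Psmb8, Psmb9 and Psmb10, which make the immunoproteasome. The caps can be replaced by the activators encoded by Psme1 to Psme4, of which interferon induces that of Psme1 and Psme2. In neurons the proteasome is known for its part in synapse remodelling and in protein quality control.

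Total RNA of hippocampus was hybridised to beadchips of the MouseRef-8 v2 design (Illumina), with 4 arrays in each of 4 groups. The groups were WT at postnatal day (P) 1, Mef2c-het at P1, WT at P30 and Mef2c-het at P30. All mice were on the C57BL/6J background, and the study's methods derive the Mef2c-het mice from a conventional allele of Mef2c that lacks exon 2, so that every cell of the animal carries it. The labels call these mice KO. The question the arrays were made for was how the loss of 1 copy of Mef2c, a transcription factor gene of neurons and muscle, changes hippocampal gene expression, and the pair of ages also lets each genotype be followed from P1 to P30. No label gives sex, litter or chip, and no source used here says whether each array held the RNA of 1 mouse or describes the preparation at P1.

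Each array detected 12638 to 14150 probes, the median probe was read from 36 to 39 beads, and the median standard error over the beads was 3.38% to 4.05% of the signal. Signals of array pairs correlated, across probes and before normalization, at r = 0.983 to 0.996 within P1, 0.984 to 0.997 within P30 and 0.918 to 0.943 between the ages. The arrays of each age fell into a larger and a smaller cluster. The smaller ones had a higher background and held WT P1 array 8, Mef2c-het P1 array 8, WT P30 arrays 6 and 7 and Mef2c-het P30 array 7, so both genotypes were in both. WT P30 had more arrays in the smaller cluster than any other group. By Xist and Y-linked probes all 8 arrays at P30 read as male, and at P1 those that did were WT array 8 and Mef2c-het arrays 2 and 8, so age and sex are largely entangled. At P1 sex is partly entangled with the array clusters as well, since array 8 of each genotype read as male and lay in the smaller cluster. The pair of Mef2c probes differed between genotypes by 0.07 and -0.01 at P1 and by -0.29 and -0.24 at P30 on the log2 scale, none past the adjusted threshold. Whether these probes lie in the deleted exon was not checked, so they do not test the labels. Of 11 hippocampal marker genes with a probe, 9 were detected and Emx2 and Calb1 were not, and among neuronal markers Snap25 and Nefl were not detected on any array.

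Promoter windows are shown for 4 members on which the age results turn: Psmb6, the catalytic gene that fell most, Psmb9, an inducible catalytic gene that rose, and Psme1 and Psme2, whose products form 1 activator ring. Each runs 5′ to 3′ on the strand of the gene from 250 bases before to 50 bases after the RefSeq transcript start in GRCm38.p6, and capitals mark a motif match. Psmb6 lies on the plus strand at chr11:70525107-70525406, Psmb9 on the minus strand at chr17:34187281-34187580, Psme1 on the plus strand at chr14:55578244-55578543 and Psme2 on the minus strand at chr14:55591052-55591351. The genes Psme1 (chr14:55578494-55581527) and Psme2 (chr14:55587440-55591101) are neighbours.
Psmb6: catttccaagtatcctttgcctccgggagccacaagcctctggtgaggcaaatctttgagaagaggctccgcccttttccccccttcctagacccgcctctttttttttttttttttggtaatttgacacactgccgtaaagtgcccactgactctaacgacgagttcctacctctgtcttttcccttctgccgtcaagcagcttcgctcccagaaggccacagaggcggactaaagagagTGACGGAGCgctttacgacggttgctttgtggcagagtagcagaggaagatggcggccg
Psmb9: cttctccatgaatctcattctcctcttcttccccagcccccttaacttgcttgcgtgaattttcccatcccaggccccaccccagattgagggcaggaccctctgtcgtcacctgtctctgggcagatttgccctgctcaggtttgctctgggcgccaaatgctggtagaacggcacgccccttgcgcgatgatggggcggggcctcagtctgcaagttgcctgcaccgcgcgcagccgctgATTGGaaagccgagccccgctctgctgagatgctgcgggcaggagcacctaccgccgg
Psme1: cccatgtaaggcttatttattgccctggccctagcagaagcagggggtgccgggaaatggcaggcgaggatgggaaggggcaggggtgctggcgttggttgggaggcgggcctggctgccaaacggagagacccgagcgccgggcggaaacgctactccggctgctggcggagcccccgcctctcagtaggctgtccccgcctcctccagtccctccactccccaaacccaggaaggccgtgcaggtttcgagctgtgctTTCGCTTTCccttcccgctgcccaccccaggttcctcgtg
Psme2: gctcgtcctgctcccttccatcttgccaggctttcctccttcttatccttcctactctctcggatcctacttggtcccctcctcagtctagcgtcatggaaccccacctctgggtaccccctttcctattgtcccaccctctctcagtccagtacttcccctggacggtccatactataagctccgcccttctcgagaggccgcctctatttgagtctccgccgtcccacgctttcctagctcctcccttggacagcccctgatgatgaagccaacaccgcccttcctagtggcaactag

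Windows were held for 34 of the 39 member genes, 36 windows in all, and 4 motifs were searched on both strands. The core of the antioxidant response element (TGACNNNGC), the type of site bound by the Nfe2l1 and Nfe2l2 factors, was in 16.7% of member windows and in 12.4% of all 32851 windows. The CCAAT box (CCAAT) was in 33.3% against 37.4%, an interferon response element (GAAANNGAA) in 16.7% against 8.56%, and a gamma-activated site (TTCNNNGAA) in 2.78% against 8.30%. The interferon element was in 6 member windows, of Psmb3, Psmb4, Psmc2, Psmd4, Psmd9 and Psme1, and in 0 of the 2 immunoproteasome windows. Matches of different motifs may overlap. The capitals show the antioxidant core in Psmb6 from base -9 to -1, a CCAAT box in Psmb9 on the opposite strand from -8 to -4 and an interferon element in Psme1 on the opposite strand from 10 to 18, counted from the start site. Psme2 has a pair of overlapping windows, of which the more upstream is shown, and neither held a match. These are matches of letters and do not show binding.

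Most proteasome probes were lower at P30 than at P1, in both genotypes. In WT, 39 of the 55 members fell, 4 rose and 12 did not pass the threshold of an adjusted p under 0.05 (limma, 4 arrays per group). Among all 14777 probes tested, 31.7% were called lower and 28.0% higher in the same comparison. In Mef2c-het, 32 members fell, 5 rose and 18 did not pass, against 31.4% lower and 26.9% higher among all probes tested. All 32 members that fell in Mef2c-het also fell in WT, and 4 members rose in both. The median log2 difference (P30 over P1) of the members was -0.40 in WT and -0.33 in Mef2c-het, beside -0.03 and -0.02 over all probes tested. The values are relative to all probes of an array, because the arrays were quantile normalized, and in bulk hippocampus fewer cells of a type and less RNA per cell cannot be told apart. The p-values measure the spread between these arrays, part of which may be technical.

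**Figure D1:**
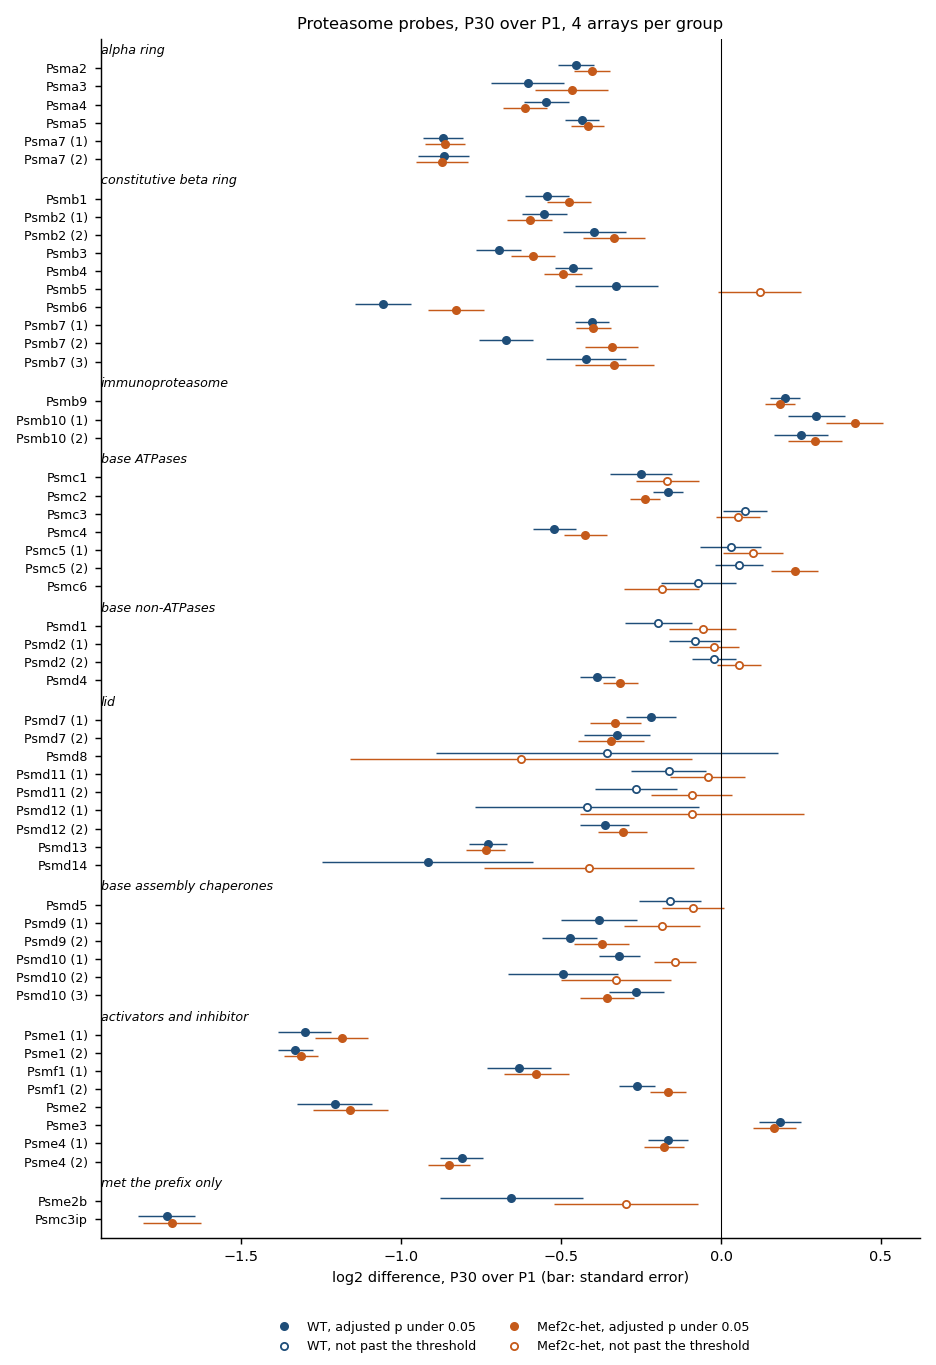
Each point is the log2 difference of 1 probe, P30 over P1, for WT (blue) and Mef2c-het (orange), grouped by role, with the standard error of the fit as a bar. Filled points passed an adjusted p under 0.05 in limma. Probes of 1 gene are numbered in the order of their identifiers. The alpha ring and constitutive beta ring lie left of 0 except Psmb5 in Mef2c-het, the immunoproteasome probes lie right of 0, and the base ATPases lie on both sides of 0, with Psmc4 and Psmc2 filled on the left in both genotypes, Psmc1 on the left in WT and the second Psmc5 probe on the right in Mef2c-het.

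The genes of the core particle fell, apart from Psmb5 in Mef2c-het. All 6 alpha ring probes, of 5 genes, fell in both genotypes, beside 31.7% of all probes tested in WT and 31.4% in Mef2c-het. Their differences ran from -0.43 (Psma5) to -0.87 (Psma7) in WT, with a median of -0.58. Psma7 was the gene of this ring that fell most. Its first probe (ILMN_2630328) read 12.20, 12.49, 12.37 and 12.37 on the WT P1 arrays, 12.29, 12.29, 12.37 and 12.30 on the Mef2c-het P1 arrays, 11.51, 11.40, 11.50 and 11.54 on the WT P30 arrays and 11.45, 11.54, 11.38 and 11.42 on the Mef2c-het P30 arrays, as log2 signal. The lowest P1 array was above the highest P30 array in each genotype. The difference was -0.87 ± 0.06 (SE, limma, adjusted p = 3.56e-09) in WT and -0.86 ± 0.06 (SE, limma, adjusted p = 4.20e-09) in Mef2c-het, a 1.83-fold and a 1.82-fold lower signal. The other probe of Psma7 gave -0.87 and -0.87. Psma2, Psma3, Psma4 and Psma5 gave -0.45, -0.60, -0.55 and -0.43 in WT and -0.40, -0.47, -0.61 and -0.42 in Mef2c-het, all past the threshold. The probes of Psma1 and Psma6 and a further probe of Psma3 were not detected on any array, so these are not measured here.

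All 10 probes of the constitutive beta ring, of 7 genes, fell in WT, with a median of -0.50, and 9 of 10 fell in Mef2c-het, with a median of -0.44. Among all probes tested, 31.7% fell in WT and 31.4% in Mef2c-het. Of this ring, Psmb6, which encodes the caspase-like site, fell most. Its probe (ILMN_2895862) read 12.87, 13.12, 13.01 and 12.86 on the WT P1 arrays, 12.89, 12.87, 13.05 and 12.72 on the Mef2c-het P1 arrays, 11.998, 11.85, 11.87 and 11.91 on the WT P30 arrays and 12.15, 12.16, 12.10 and 11.82 on the Mef2c-het P30 arrays. Every P30 array was below every P1 array, by more than the spread of either group. The difference was -1.06 ± 0.09 (SE, limma, adjusted p = 2.32e-08) in WT, a 2.08-fold lower signal, and -0.83 ± 0.09 (SE, limma, adjusted p = 4.61e-07) in Mef2c-het, 1.78-fold lower.

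Psmb7, which encodes the trypsin-like site, was read by 3 probes, and all fell in both genotypes. They gave -0.40, -0.67 and -0.42 in WT and -0.40, -0.34 and -0.33 in Mef2c-het. The first of them (ILMN_1221340) read 12.86, 12.89, 13.00 and 12.89 on the WT P1 arrays, 12.90, 12.87, 12.98 and 12.85 on the Mef2c-het P1 arrays, 12.48, 12.53, 12.51 and 12.49 on the WT P30 arrays and 12.50, 12.61, 12.46 and 12.42 on the Mef2c-het P30 arrays, with no overlap between the ages. The Mef2c-het call of the last was lost without P1 array 4 or P30 arrays 5 or 7, at -0.21 to -0.33. Psmb5, which encodes the chymotrypsin-like site and is the target of proteasome inhibitor drugs, was the exception. Its probe (ILMN_2613469) read 11.21, 11.34, 11.45 and 11.01 on the WT P1 arrays, 10.91, 10.99, 11.15 and 10.97 on the Mef2c-het P1 arrays, 11.04, 11.11, 10.94 and 10.61 on the WT P30 arrays and 11.28, 11.18, 11.28 and 10.75 on the Mef2c-het P30 arrays. The ages overlapped in both genotypes, and the lowest array of each P30 group was array 7, of the smaller clusters. The difference was -0.33 ± 0.13 (SE, limma, adjusted p = 0.0392) in WT and 0.12 ± 0.13 (SE, limma, adjusted p = 0.454) in Mef2c-het. In WT the adjusted p rose above the threshold when any of WT P1 arrays 1, 4 and 5 or WT P30 arrays 6 and 7 was left out, with differences of -0.22 to -0.34.

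Among the structural beta subunits, Psmb3 gave -0.70 in WT and -0.59 in Mef2c-het, Psmb1 -0.54 and -0.48, and Psmb4 -0.46 and -0.49. The detected probes of Psmb2 gave -0.55 and -0.40 in WT and -0.60 and -0.33 in Mef2c-het, and a further Psmb2 probe was not detected on any array. Each of these differences passed the threshold.

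The inducible catalytic subunits moved the other way. All 3 detected probes, of Psmb9 and Psmb10, rose in both genotypes, where 28.0% of all probes tested rose in WT and 26.9% in Mef2c-het. Psmb9 was near the floor of the array. Its probe (ILMN_1242466) read 7.36, 7.36, 7.37 and 7.41 on the WT P1 arrays, 7.36, 7.34, 7.34 and 7.33 on the Mef2c-het P1 arrays, 7.60, 7.62, 7.50 and 7.59 on the WT P30 arrays and 7.49, 7.55, 7.51 and 7.57 on the Mef2c-het P30 arrays. The P30 arrays were above the P1 arrays in both genotypes, with a narrow spread, and 15 of the 16 arrays detected it. The difference was 0.20 ± 0.05 (SE, limma, adjusted p = 0.00127) in WT and 0.18 ± 0.05 (SE, limma, adjusted p = 0.00244) in Mef2c-het. A log2 signal this near background understates a fold change, so the 1.15-fold higher signal in WT is a description of the array signal.

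Psmb10 was well above background and had a pair of probes. The first (ILMN_2757870) read 10.23, 10.11, 10.02 and 10.33 on the WT P1 arrays, 10.04, 9.90, 10.15 and 10.17 on the Mef2c-het P1 arrays, 10.38, 10.41, 10.51 and 10.58 on the WT P30 arrays and 10.58, 10.27, 10.52 and 10.57 on the Mef2c-het P30 arrays. The ages did not overlap in either genotype. It rose by 0.30 ± 0.09 (SE, limma, adjusted p = 0.00835) in WT and 0.42 ± 0.09 (SE, limma, adjusted p = 6.68e-04) in Mef2c-het, and the other probe rose by 0.25 ± 0.08 (SE, limma, adjusted p = 0.0169) and 0.29 ± 0.08 (SE, limma, adjusted p = 0.00665). The WT call of the other probe was lost without WT P1 array 5 or WT P30 array 7, at 0.19 in both cases. With sex as a covariate both WT calls were lost, at 0.25 (adjusted p = 0.0790, limma) and 0.22 (adjusted p = 0.113, limma). On the WT P1 arrays sex and array cluster coincided. With each array scaled to a common median in place of quantile normalization, 1 of the 3 probes passed in WT and 2 in Mef2c-het, all still higher at P30. Psmb8, the partner gene of Psmb5, was detected on 2 arrays, WT at P1 and WT at P30, 1 each, and is not a member. Its probe is not well above background on the others.

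**Figure D2:**
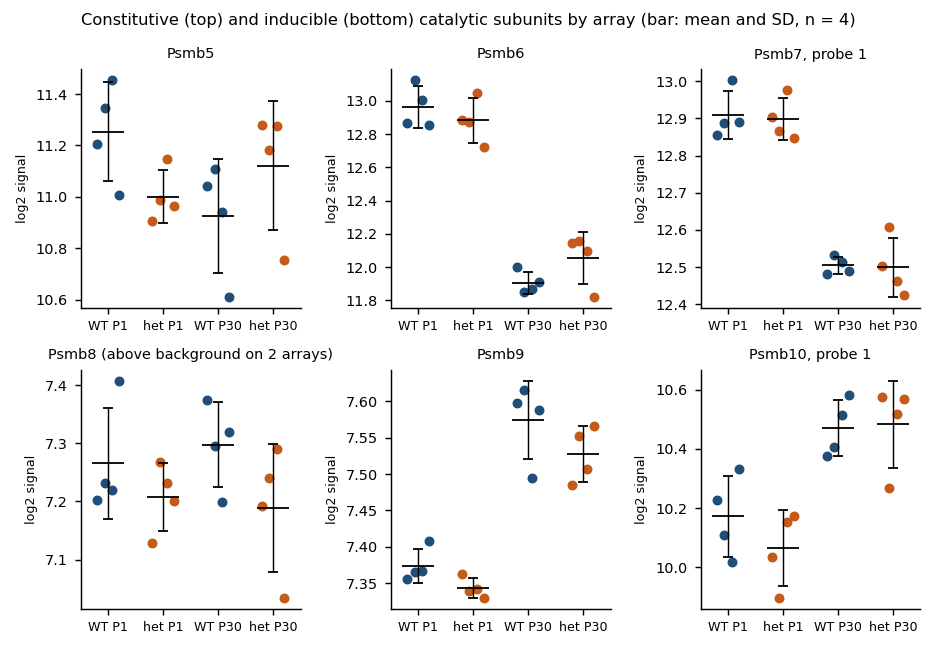
Log2 signal after quantile normalization over 16 arrays for the constitutive catalytic genes (top) and their inducible counterparts (bottom), 1 point per array, with the mean and SD of 4 arrays. Psmb6 lies between 12.72 and 13.12 at P1 and between 11.82 and 12.16 at P30, while every P30 array of Psmb9 and of the first Psmb10 probe lies above the P1 arrays of its genotype. The vertical axes differ, and levels of different probes cannot be compared.

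Within each array the difference between an inducible subunit and its constitutive partner was therefore larger at P30. Psmb9 minus Psmb6 in log2, relative to the mean of WT P1, was 1.26 in WT P30 (1.19 to 1.36) and 1.06 in Mef2c-het P30 (0.93 to 1.34), against -0.17 to 0.20 at P1. Psmb10 minus Psmb7 was 0.70 in WT P30 (0.61 to 0.83) and 0.72 in Mef2c-het P30 (0.39 to 0.88), against -0.25 to 0.18 at P1. The ages did not overlap in either quantity. These differences show that the members of a pair changed unequally and give no share of either subunit in the particle.

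Microglia are known to express immunoproteasome genes, and their markers moved in the same direction. Of 11 tested markers, 7 rose and 0 fell in WT, and 11 rose in Mef2c-het, with Itgam not detected, where 28.0% and 26.9% of all probes rose. Their summed signal was 3874 to 4789 in WT P1, 3456 to 4267 in Mef2c-het P1, 6093 to 6585 in WT P30 and 6630 to 7592 in Mef2c-het P30. This direction was not particular to microglia. Astrocyte markers (7 of 8) and oligodendrocyte markers (8 of 8) also rose in both genotypes, while neuronal and endothelial markers went both ways. Genes of antigen processing and interferon signalling had 10 members tested, of which 4 rose in WT and 5 in Mef2c-het and 0 fell, where 28.0% and 26.9% of all probes tested rose. Among those that rose in WT were B2m (0.93), the light chain of class I antigen molecules, the peptide transporter gene Tap2 (0.59) and the transcription factor gene Irf1 (0.62). The receptor gene Ifngr1 (0.25) rose in Mef2c-het. The part of microglia in the rise of Psmb9 and Psmb10 was not tested.

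The regulatory particle changed less evenly. Of 20 probes of 15 base and lid genes, 9 (45.0%) fell in WT and 7 (35.0%) fell in Mef2c-het, where 1 rose, beside 31.7% and 31.4% of all probes tested, so the Mef2c-het share was near that of all probes. The base ATPases had a median of -0.07 in WT and -0.17 in Mef2c-het. The WT median was on the other side of 0 with sex as a covariate (0.06), in the larger array cluster alone (0.02) and without WT P30 array 7 (0.0087), and it was 0.000642 with the array cluster as a block. Psmc4 was the ATPase gene that fell most. Its probe (ILMN_2632349) read 12.60, 12.74, 12.45 and 12.65 on the WT P1 arrays, 12.49, 12.45, 12.53 and 12.47 on the Mef2c-het P1 arrays, 12.04, 11.995, 12.09 and 12.24 on the WT P30 arrays and 12.08, 11.96, 12.11 and 12.08 on the Mef2c-het P30 arrays. The ages did not overlap in either genotype. The difference was -0.52 ± 0.07 (SE, limma, adjusted p = 4.59e-06) in WT and -0.42 ± 0.07 (SE, limma, adjusted p = 4.32e-05) in Mef2c-het. Psmc2 fell by 0.17 in WT and by 0.24 in Mef2c-het, with little spread between arrays, and Psmc1 gave -0.25 in WT (adjusted p = 0.0366, limma) and -0.17 in Mef2c-het (adjusted p = 0.156, limma).

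Apart from 1 probe of Psmc5 in Mef2c-het, the remaining ATPases did not pass the threshold. Psmc3 gave 0.08 and 0.05, neither past the threshold. Psmc5 gave 0.03 and 0.06 in WT for its pair of probes. In Mef2c-het the second of them rose, by 0.23 ± 0.07 (SE, limma, adjusted p = 0.014), and the first gave 0.10. With median scaling this rise was lost (adjusted p = 0.216, limma). Psmc6 was detected on 9 arrays and gave -0.07 and -0.19. Among the base subunits without ATPase activity, the ubiquitin receptor gene Psmd4 fell, by 0.39 in WT and by 0.32 in Mef2c-het, while the scaffold genes Psmd1 and Psmd2 did not pass the threshold, with values from -0.20 to 0.06. Both Psmd2 probes were dim, the second being detected on 12 arrays, so a fall there would be understated.

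The core and the base ATPases, taken as means, therefore separated within each array. The mean of the 16 core probes minus the mean of the base ATPase probes, relative to WT P1, was -0.46 in WT P30 (-0.51 to -0.43) and -0.40 in Mef2c-het P30 (-0.42 to -0.37), against -0.07 to 0.07 at P1. The mean core level itself was -0.58 in WT P30 and -0.52 in Mef2c-het P30, and the mean base ATPase level was -0.12 in both. The ATPase mean counts both probes of Psmc5 and includes Psmc6, detected on 9 arrays, where a change is understated. It does not stand for each base gene. Psmc4 (-0.52 in WT and -0.42 in Mef2c-het) fell within the range of the core probes. Psmd4, a base gene outside this mean, fell by 0.39 and 0.32. These are descriptions of unequal change over the same arrays, given without a test.

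In the lid, 5 of 9 probes fell in WT, where 31.7% of all probes tested were lower, and 4 fell in Mef2c-het, where 31.4% were lower, with medians of -0.36 and -0.33. The WT count was 1 with median scaling, 2 with sex as a covariate and 3 without any of WT P1 array 4 or WT P30 arrays 6 and 7, and the Mef2c-het count was 2 with median scaling. Psmd13, a structural lid subunit named here after its values were seen, fell by 0.73 in WT and by 0.74 in Mef2c-het. The probes of Psmd7, the partner of the deubiquitinase, gave -0.22 and -0.32 in WT and -0.33 and -0.34 in Mef2c-het, and the second probe of Psmd12 -0.36 and -0.31, all past the threshold. The first probe of Psmd12 gave -0.42 in WT and -0.09 in Mef2c-het, neither past the threshold. The detected probes of Psmd11 gave -0.16 and -0.27 in WT and -0.04 and -0.09 in Mef2c-het. None of these passed, and the remaining probe of Psmd11 was not detected. The first Psmd11 probe was near background and detected on 11 arrays.

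Psmd14, the deubiquitinase of the lid, had the largest called fall of the lid in WT and also a wide spread. Its probe (ILMN_2933914) read 10.45, 11.07, 11.26 and 10.10 on the WT P1 arrays, 11.00, 10.66, 10.95 and 10.10 on the Mef2c-het P1 arrays, 10.38, 10.24, 9.37 and 9.22 on the WT P30 arrays and 10.35, 10.72, 10.52 and 9.46 on the Mef2c-het P30 arrays. The ages overlapped, and in all 4 groups the arrays of the smaller clusters were the lowest. The difference was -0.92 ± 0.33 (SE, limma, adjusted p = 0.0243) in WT and -0.41 ± 0.33 (SE, limma, adjusted p = 0.304) in Mef2c-het. The WT call was lost when any of WT P1 arrays 4 and 5 or WT P30 arrays 6 and 7 was left out, at -0.72 to -0.80, and in a fit blocked by array cluster the fall also passed in Mef2c-het (adjusted p = 0.0107, limma).

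The same split of the arrays was seen in the first probe of Psmd12 and in Psme2b. The mean of the smaller-cluster arrays minus that of the others, averaged over the 4 groups, was -1.02 for this Psmd12 probe, -0.92 for Psmd14 and -0.63 for Psme2b, lower in all 4 groups each, where the median within-group SD of the members was 0.12. The split was not confined to these probes. Smaller differences, also lower in all 4 groups, included the second probe of Psmd10 (-0.46), Psma3 (-0.29), Psmb5 (-0.29) and Psmb6 (-0.18). Other probes did not show it, such as the first of Psma7 (0.0054) and Psme2 (0.23). Psmd8, a lid gene, had 1 array apart. Its probe (ILMN_2678019) read 11.52, 11.75, 11.54 and 11.72 on the WT P1 arrays, 11.55, 11.22, 11.52 and 11.47 on the Mef2c-het P1 arrays, 10.80, 10.93, 11.58 and 11.80 on the WT P30 arrays and 11.69, 8.35, 11.70 and 11.52 on the Mef2c-het P30 arrays. Mef2c-het P30 array 5 was far below the other arrays of its group, and WT P30 arrays 2 and 3 were also low. The difference was -0.36 ± 0.53 (SE, limma, adjusted p = 0.593) in WT and -0.63 ± 0.53 (SE, limma, adjusted p = 0.34) in Mef2c-het, and -0.46 between the genotypes at P30. Without Mef2c-het P30 array 5 the Mef2c-het age difference became 0.19 and the genotype difference at P30 became 0.37, so the sign of both rests on that array. Psmd8, Psmd12 and Psme2b are named after their values were seen.

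**Figure D3:**
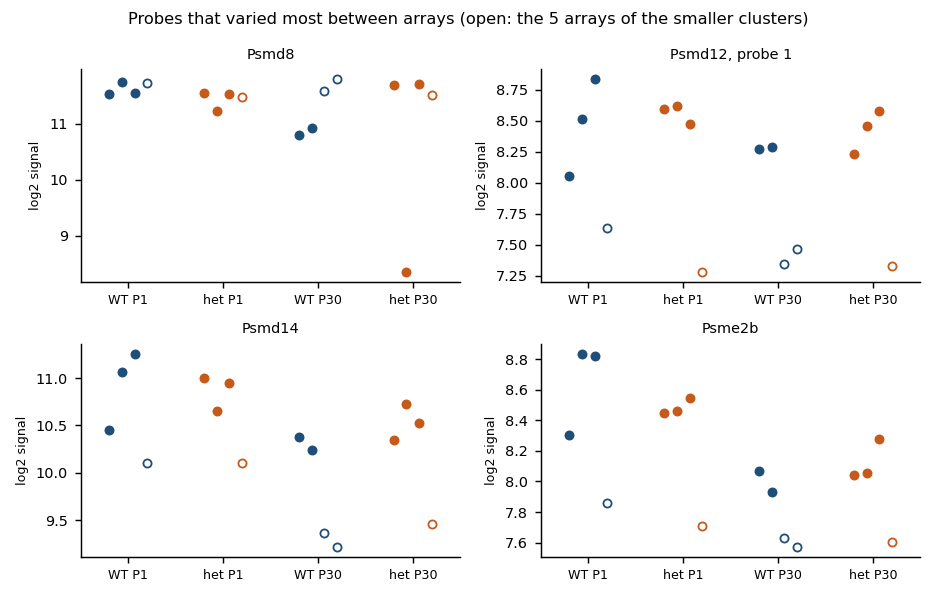
Log2 signal by array for the 4 probes that varied most between arrays of 1 group, with open points for the 5 arrays of the smaller clusters. The open points are the lowest of their group for Psmd12 (probe 1), Psmd14 and Psme2b, and Psmd8 has a single low point at 8.35 in Mef2c-het P30.

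The chaperones that assemble the base, encoded by Psmd5, Psmd9 and Psmd10, had 5 of 6 probes (83.3%) that fell in WT and 2 of 6 (33.3%) in Mef2c-het, beside 31.7% and 31.4% of all probes tested, with medians of -0.35 and -0.26. The largest called fall in WT was that of the second probe of Psmd10, the gene of gankyrin, at -0.49 ± 0.17 (SE, limma, adjusted p = 0.021), and this probe gave -0.33 in Mef2c-het (adjusted p = 0.116, limma). Its WT call was lost without any of WT P1 arrays 4 and 5 or WT P30 arrays 6 and 7, at -0.38 to -0.45. In Mef2c-het it passed without P1 array 8, at -0.45, and when the fit was blocked by array cluster (adjusted p = 0.00144, limma). The other Psmd10 probes gave -0.32 and -0.26 in WT and -0.14 and -0.36 in Mef2c-het, the first of which missed the threshold in Mef2c-het.

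The activators held the largest falls of any subunit. Psme1 and Psme2 encode the subunits of the PA28 alpha-beta ring, the activator that interferon induces together with the immunoproteasome. The second probe of Psme1 (ILMN_2986309) read 12.50, 12.48, 12.53 and 12.61 on the WT P1 arrays, 12.58, 12.56, 12.40 and 12.49 on the Mef2c-het P1 arrays, 11.20, 11.19, 11.15 and 11.26 on the WT P30 arrays and 11.23, 11.15, 11.22 and 11.19 on the Mef2c-het P30 arrays. The lowest P1 array was at 12.40 and the highest P30 array at 11.26, so the ages were far apart. The difference was -1.33 ± 0.05 (SE, limma, adjusted p = 3.22e-12) in WT and -1.31 ± 0.05 (SE, limma, adjusted p = 4.42e-12) in Mef2c-het, 2.52-fold and 2.49-fold lower. The other Psme1 probe gave -1.30 and -1.19.

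Psme2 (ILMN_2731057) read 9.70, 9.61, 9.38 and 9.92 on the WT P1 arrays, 9.47, 9.54, 9.69 and 9.64 on the Mef2c-het P1 arrays, 8.20, 8.32, 8.49 and 8.77 on the WT P30 arrays and 8.44, 8.40, 8.34 and 8.52 on the Mef2c-het P30 arrays. The ages did not overlap, and the 4 Mef2c-het arrays of each age were tighter than the WT arrays. The difference was -1.21 ± 0.12 (SE, limma, adjusted p = 1.70e-07) in WT and -1.16 ± 0.12 (SE, limma, adjusted p = 2.85e-07) in Mef2c-het. The exact permutation p over the 70 splits of 4 and 4 arrays was 0.0286 (two-sided) for Psme1, Psme2 and Psmb6 in each genotype, which is the smallest this design allows. So the genes of the PA28 ring fell while Psmb9 and Psmb10 rose on the same arrays.

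Psme4, which encodes the activator PA200, also fell. Its second probe (ILMN_2947187) read 11.53, 11.60, 11.80 and 11.68 on the WT P1 arrays, 11.67, 11.61, 11.66 and 11.63 on the Mef2c-het P1 arrays, 10.87, 10.92, 10.77 and 10.80 on the WT P30 arrays and 10.92, 10.81, 10.75 and 10.69 on the Mef2c-het P30 arrays. The ages were apart in both genotypes. The difference was -0.81 ± 0.07 (SE, limma, adjusted p = 1.88e-08) in WT and -0.85 ± 0.07 (SE, limma, adjusted p = 1.13e-08) in Mef2c-het. Its first probe was detected on 4 arrays, all at P1, and on none at P30, so its calls (-0.17 and -0.18) compare a dim signal with background. They were lost without WT P30 array 3 (-0.14) or array 7 (-0.17) and without Mef2c-het P30 array 3 (-0.15).

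Psme3, which encodes the nuclear activator PA28 gamma, did not fall. Its probe (ILMN_2729718) read 10.65, 10.69, 10.80 and 10.69 on the WT P1 arrays, 10.71, 10.70, 10.68 and 10.83 on the Mef2c-het P1 arrays, 10.87, 10.94, 10.97 and 10.78 on the WT P30 arrays and 10.92, 10.76, 11.05 and 10.87 on the Mef2c-het P30 arrays. The ages overlapped in both genotypes. The difference was 0.18 ± 0.07 (SE, limma, adjusted p = 0.025) in WT and 0.17 ± 0.07 (SE, limma, adjusted p = 0.041) in Mef2c-het. Both calls lay near the threshold. The WT call was lost without any of WT P1 arrays 1 and 4 or WT P30 arrays 3 and 6, at 0.16 to 0.18. The Mef2c-het call was lost without any of the P1 arrays 1, 2 and 4 or the P30 arrays 3, 6 and 7, at 0.12 to 0.18.

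Psmf1, which encodes the inhibitor PI31, fell. Its first probe (ILMN_1233929) read 11.26, 10.90, 10.77 and 10.92 on the WT P1 arrays, 10.96, 11.01, 10.81 and 10.93 on the Mef2c-het P1 arrays, 10.26, 10.27, 10.27 and 10.52 on the WT P30 arrays and 10.53, 10.22, 10.41 and 10.24 on the Mef2c-het P30 arrays. The ages did not overlap. The difference was -0.63 ± 0.10 (SE, limma, adjusted p = 4.43e-05) in WT and -0.58 ± 0.10 (SE, limma, adjusted p = 1.11e-04) in Mef2c-het. Its second probe was dimmer and gave -0.26 and -0.17, and the latter call was lost without Mef2c-het P30 array 3, at -0.14.

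**Figure D4:**
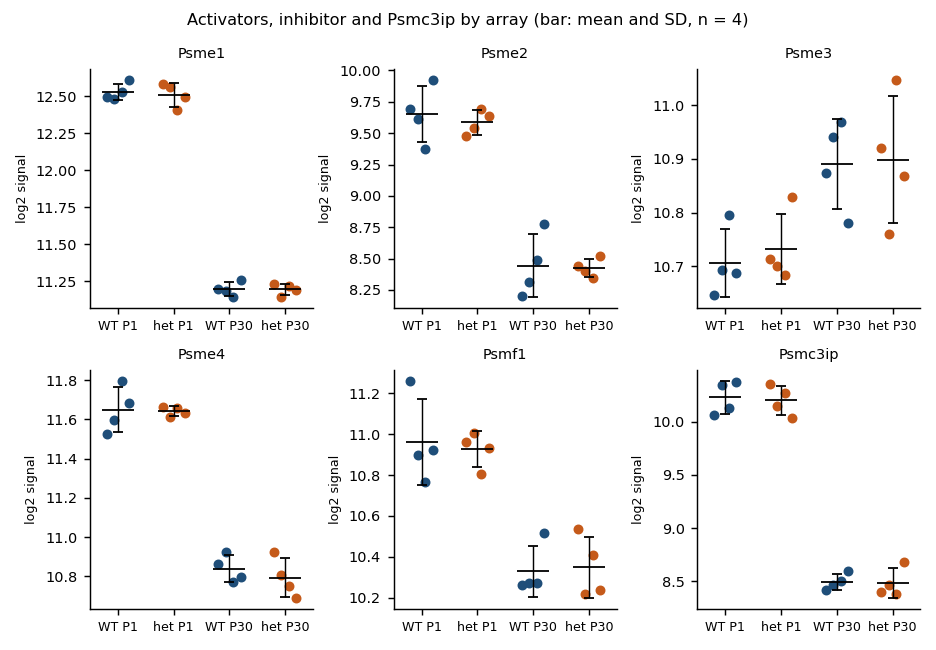
Log2 signal after quantile normalization over 16 arrays for Psme1 (second probe), Psme2, Psme3, Psme4 (second probe), Psmf1 (first probe) and Psmc3ip, 1 point per array, with the mean and SD of 4 arrays. For every gene but Psme3 the P30 arrays lie below the P1 arrays in both genotypes. Psme3 lies between 10.65 and 10.83 at P1 and between 10.76 and 11.05 at P30.

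The largest fall of the list belonged to Psmc3ip, which is no subunit. Its probe (ILMN_2999654) read 10.07, 10.34, 10.13 and 10.37 on the WT P1 arrays, 10.35, 10.15, 10.26 and 10.03 on the Mef2c-het P1 arrays, 8.41, 8.47, 8.50 and 8.59 on the WT P30 arrays and 8.40, 8.47, 8.38 and 8.68 on the Mef2c-het P30 arrays. The ages were far apart. The difference was -1.73 ± 0.09 (SE, limma, adjusted p = 6.62e-11) in WT and -1.72 ± 0.09 (SE, limma, adjusted p = 7.68e-11) in Mef2c-het, 3.33-fold and 3.29-fold lower. Psme2b gave -0.66 in WT (adjusted p = 0.0191, limma) and -0.30 in Mef2c-het (adjusted p = 0.276, limma). As a copy related to Psme2 it may share signal with that gene, which cannot be checked without the probe sequences, not used here. Psmd6 is listed on the array under the older symbol 2400006A19Rik, outside the rule. Its probes gave -0.37 and -0.09 in WT, neither past the threshold.

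Genes that work with the proteasome were followed by lists of known partners. The chaperones that assemble the core particle all fell, 4 of 4 measured in both genotypes, with a median of -0.57 in WT and -0.50 in Mef2c-het. They are Psmg1 (-0.81 in WT), Psmg2 (-0.59), Psmg3 (-0.55) and the maturation factor Pomp (-0.42). This list and the next 3 are small, and their counts stand beside 31.7% lower and 28.0% higher of all probes in WT and 31.4% and 26.9% in Mef2c-het. Of 7 tested genes of proteasome-associated proteins, 2 fell and 1 rose in each genotype. The ubiquitin receptor gene Adrm1 (-0.22 in WT) and the small lid gene Sem1 (-0.89) fell, and Zfand2a (0.32) rose. Of 4 tested genes of ubiquitin and its activating enzymes, 2 fell in each genotype. They are Uba1 (-1.15 in WT), the main activating enzyme, and Rps27a (-0.57), a fusion of ubiquitin to a ribosomal protein. The polyubiquitin gene Ubb (0.11) did not pass.

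Among 8 tested genes of shuttle factors and the segregase, 3 rose and 2 fell in WT and 2 rose and 2 fell in Mef2c-het. The shuttle gene Ubqln4 (0.62 in WT) rose and the segregase gene Vcp (-0.38) and its cofactor Nsfl1c (-0.60) fell, each in both genotypes, and the cofactor Nploc4 (0.27) rose in WT. Nfe2l1, which encodes the transcription factor that restores proteasome gene expression when the protease is blocked, rose by 0.85 in WT and 0.97 in Mef2c-het. Nfe2l2 (0.01 in WT), detected on 5 of 16 arrays, did not pass. Beside the proteasome genes, cytosolic ribosomal proteins had 30 of 38 probes lower and 3 higher in WT, with a median of -0.61, and oxidative phosphorylation had 9 of 78 lower and 25 higher, with a median of 0.07. Among all probes tested in WT, 31.7% were lower and 28.0% higher. Frequent falls were thus seen in the ribosomal list too.

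Marker genes of several cell types also differed between the ages. Their counts stand beside 31.7% lower and 28.0% higher of all probes in WT and 31.4% and 26.9% in Mef2c-het. All 6 tested genes of proliferating cells fell in both genotypes, with sums of 3770 to 4691 in WT P1, 3850 to 4607 in Mef2c-het P1, 1216 to 1281 in WT P30 and 1218 to 1284 in Mef2c-het P30, and Ccna2 and Ube2c were not detected. Of these 6, Top2a, Ccnb1, Cdk1 and Rrm2 were detected on all 8 P1 arrays but on 3, 1, 1 and 2 of the 8 P30 arrays, so they entered the fit through P1 and their falls end near background. All 8 oligodendrocyte markers rose, from sums of 2016 to 2493 to 95167 to 104101 in WT and from 2145 to 3183 to 90868 to 102462 in Mef2c-het. Of these, Mog, Mobp and Opalin were detected on no P1 array and on all P30 arrays, so their rises start from background. Neuronal markers had 3 higher and 2 lower of 6 tested in both genotypes. Endothelial markers had 3 higher of 8 in both, with 4 lower in WT and 5 in Mef2c-het. Blood markers had 2 lower of 4 in WT and 0 in Mef2c-het, and 0 higher in both. Astrocyte markers rose in 7 of 8 cases in both genotypes (WT sums 27816 to 31552 at P1 and 51724 to 55520 at P30). The part of these shifts in the fall of the proteasome genes was not tested.

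The genotype comparison asked whether the proteasome genes differ in Mef2c-het mice. No member passed an adjusted p under 0.05 at either age. At P1, 0 of 55 members passed in limma, as did 0% of 13566 probes tested, and 1 member had an unadjusted p under 0.05, beside 1.62% of all probes. At P30, 0 of 54 members passed, beside 0.00746% of 13413 probes, and 1 had an unadjusted p under 0.05, beside 2.36% of all probes. An equal-variance t-test per probe also passed no member at either age after adjustment. Most differences were small. The median was -0.04 at P1 and 0.02 at P30, beside 0.00 and -0.01 over all probes tested, and at P1 42 of 55 members were lower in Mef2c-het, beside 6687 of 13566 of all probes. At P30 23 of 54 members were lower, beside 7384 of 13413. Leaving out 1 array moved the count of members with an unadjusted p under 0.05. At P1 it was 0 without WT array 1 or Mef2c-het arrays 1 or 2, and 2 without WT arrays 5 or 8 or Mef2c-het array 4. At P30 it was 0 without WT arrays 6 or 7 or Mef2c-het arrays 3 or 6, and 9 without Mef2c-het array 7. A p that misses the threshold does not show that the genotypes are alike.

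At P1 the smallest p among the lower members belonged to Psmb5 and the second probe of Psmb7. Normalized over the arrays of P1, Psmb5 read 11.23, 11.36, 11.46 and 11.03 in WT and 10.94, 11.01, 11.17 and 10.99 in Mef2c-het. The groups overlapped, the lowest WT array being below the highest of Mef2c-het. The difference (Mef2c-het over WT) was -0.24 ± 0.10 (SE, limma, unadjusted p = 0.0345, adjusted p = 0.9998). Psmb7 gave -0.18 ± 0.08. Among the higher members, Psmd7 gave 0.15 ± 0.09 and Psmb2 0.07 ± 0.07, each with overlapping groups. The second probe of Psmf1 was the only member whose groups did not overlap at P1 (-0.13, exact permutation p = 0.0286, two-sided, limma adjusted p = 0.9998). At P30 the groups of every member overlapped. This permutation p is the smallest the design allows. The share of all probes with groups apart is not given here, so the Psmf1 value is not read as a difference between genotypes.

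At P30 the smallest p belonged to the second probe of Psmc5. Normalized over the arrays of P30, it read 12.28, 12.14, 12.18 and 12.05 in WT and 12.41, 12.26, 12.34 and 12.28 in Mef2c-het. The groups overlapped by little. The difference was 0.16 ± 0.07 (SE, limma, unadjusted p = 0.0419, adjusted p = 0.976). Psmb7 gave 0.15 ± 0.08. The lower members of smallest p were Psmc2 (-0.04 ± 0.05) and Psmc3 (-0.08 ± 0.07). With arrays scaled to a common median the Psmc2 difference was 0.0091, in the other direction. The inducible subunits and the activators were close to 0 at both ages, from -0.13 (second probe of Psmf1, P1) to 0.07 (first probe of Psme1, P30).

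**Figure D5:**
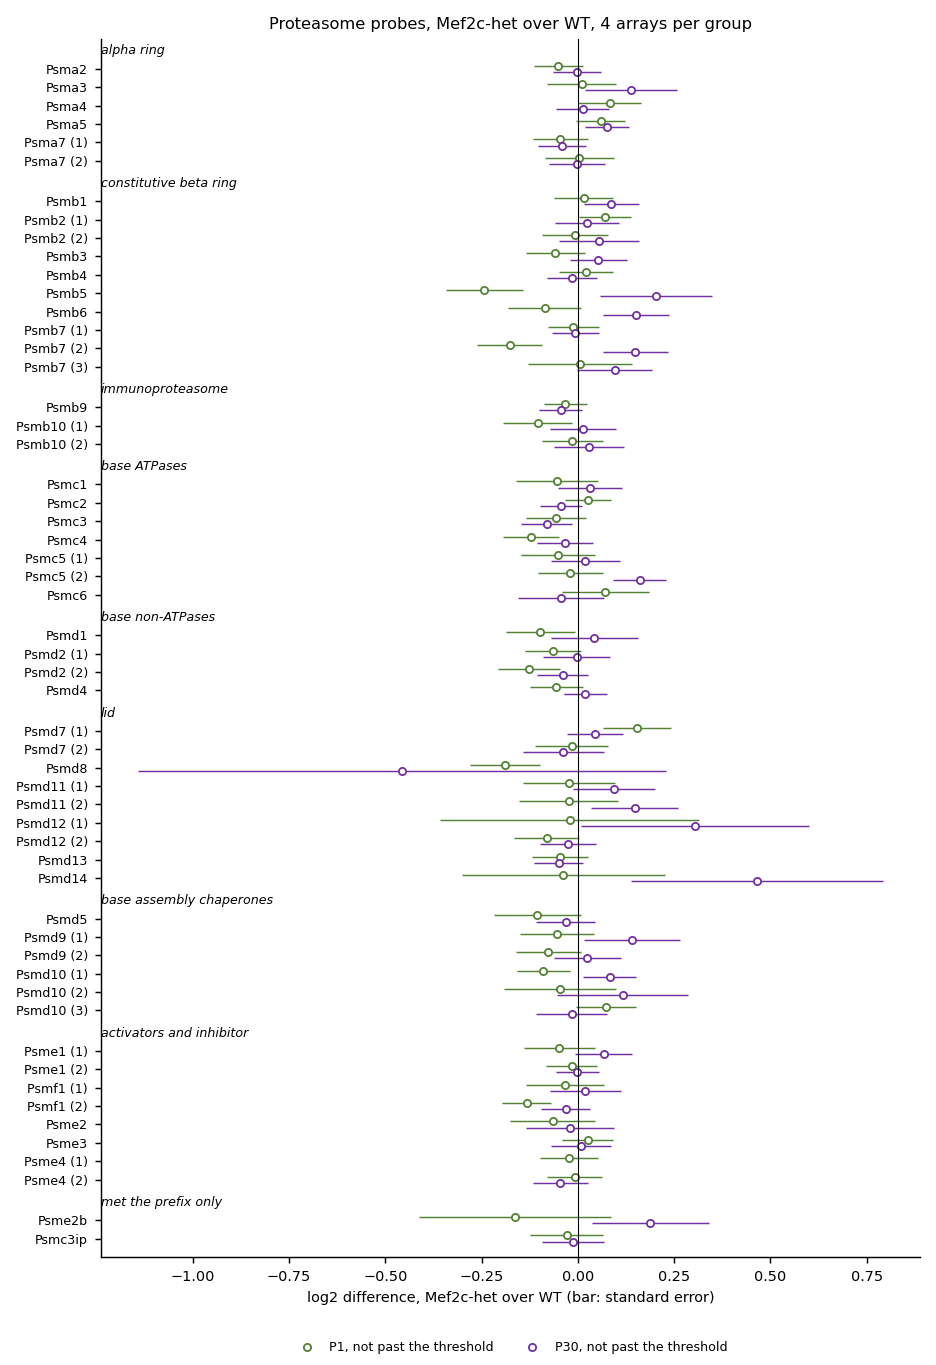
Each point is the log2 difference of 1 probe, Mef2c-het over WT, at P1 (green) and P30 (purple), grouped by role, with the standard error of the fit as a bar. All points are open because none passed an adjusted p under 0.05. The wide bars belong to Psmd8, Psmd12 (probe 1), Psmd14 and Psme2b.

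Whether the age effect differed between the genotypes was tested by the interaction in the fit of all 16 arrays. In limma 0 of 55 members and 0% of 14777 probes passed an adjusted p under 0.05, and 2 members had an unadjusted p under 0.05, beside 2.96% of all probes. These were the catalytic genes Psmb7 (second probe), with a difference of age effects of 0.33 ± 0.12 (limma, unadjusted p = 0.0136), and Psmb5, with 0.45 ± 0.18 (limma, unadjusted p = 0.0268), both with an adjusted p of 0.9981. The other probes of Psmb7 gave 0.00 and 0.09. So the members that were called in 1 genotype alone (Psmb5, Psmc1, Psmd14, Psme2b and probes of Psmc5, Psmd9 and Psmd10) are not shown to differ in their age effect. Most of those called in WT alone were lower on the smaller-cluster arrays in all 4 groups. They are Psmb5 (-0.29), Psmc1 (-0.24), Psmd14 (-0.92), Psme2b (-0.63), the first Psmd9 probe (-0.31) and the second Psmd10 probe (-0.46). The first Psmd10 probe (0.03) was not. WT P30 held more such arrays than any other group, and the share of this imbalance in the WT calls was not tested.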

How the data were processed

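Probes of the MouseRef-8 v2 beadchip carry a symbol in the deposited table, and 25376 of 25697 could be matched to a current gene name. The authors deposited, per the file headers, a linear intensity for each probe and array before any normalization, and a detection p-value from the control beads. Background subtraction is not given in the sources used here. The submitters' processing notes name lumi and limma, and the study's methods give a log2 transformation and quantile normalization.

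Here intensities (lowest 92.8, so no pseudocount was added) were transformed to log2 and quantile normalized over the arrays of a fit, all 16 for the comparison of ages and 8 for genotypes at 1 age. A probe entered a fit if 4 or more of its arrays had a detection p below 0.05. Groups were compared with limma 3.58.1 in R 4.3.3 (lmFit and eBayes), and p-values were two-sided and adjusted over every probe in the fit after Benjamini and Hochberg. The groups come from the array labels, and each was compared over its 4 arrays. Single probes were also compared by an exact permutation test. Steps were tested on simulated data. The bead counts limit the precision of a signal, and the 4 arrays per group limit that of a comparison.

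The genes named were the catalytic pairs, the activators and the inhibitor, the largest called rise and fall of each role group in WT, the pair of higher and the pair of lower members of smallest p between genotypes at each age, and the members not detected. The members and lists were chosen with earlier results of these data known. Promoters come from RefSeq (GRCm38.p6). No protein or probe sequence was used here, and some genes of the partner lists are counted but not reported by name.

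Alternatives were normexp background correction, median scaling, cyclic loess, other detection filters, the brightest probe of each gene, t-tests of equal variance, trend and robust variances, sex, array cluster or replicate number in the model, the larger array cluster alone, other sets of arrays in a fit and leaving out each array.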

Additional observations from a re-analysis of the deposited data

Results flagged for a closer look

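In groups of 4 arrays, a single array was set apart when its gap to the nearest array exceeded, as a share of the range of the group, Dixon's critical value. Of 132 groups tested (33 probes named in the text, 4 groups each), 11 held such an array, and chance gives about 6.6, so the pattern of these marks is not read further.

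Psmd8 on Mef2c-het P30 array 5 stood at 8.35 against 11.52 for the nearest array (gap 0.945 of the range). The same array held the lowest value of Psme1 (first probe, 0.897) and of Psmd12 (second probe, 0.848) and the highest of Psmd7 (first probe, 0.91) in its group. On Mef2c-het P1 array 8, an array of a smaller cluster, Psmd12 (first probe, 0.891) and Psme2b (0.886) were lowest. On Mef2c-het P1 array 4, Psma7 (first probe, 0.86) and Psmc5 (second probe, 0.845) were highest. On WT P1 array 4, Psmd13 was lowest (0.928) and Psmd7 (first probe) highest (0.888). On WT P30 array 7, Psmf1 (first probe) was highest (0.97). No member had genotypes apart in opposite directions at P1 and P30.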

How the results depend on the processing

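The total counts of called members, both directions together, held within 1.5 times their main value under every alternative. With counts by direction and at an unadjusted p included, 33 moved further and 403 did not. The 3 immunoproteasome probes called higher in WT were 1 with median scaling and 1 with sex as a covariate. In WT the main count of 43 ranged from 30 (median scaling) to 43. In Mef2c-het the main count of 37 ranged from 27 to 43 (array cluster as a block). The 27 was reached with median scaling, over 55 members tested, and with 1 probe per gene, over 39. Leaving out 1 array gave 35 to 42 in WT and 34 to 38 in Mef2c-het. For genotype at P1 and P30 and for the interaction the count was 0 under every alternative run, with the replicate block as well (0 at P1, 0 at P30 and 0 for the interaction). No label says whether the replicate numbers pair the arrays. Same-numbered arrays deviated together with r = 0.09, 0.40 and 0.83 at P1 and 0.19, -0.53 and 0.71 at P30. The pairs at 0.83 and 0.71 were arrays of the smaller clusters, so these values do not settle whether the numbers pair the arrays. Unadjusted calls between genotypes ranged from 0 to 4 at P1 and from 0 to 9 at P30, the latter without Mef2c-het P30 array 7.

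Of 44 called age differences of named probes, 28 kept their call under every alternative. The signs that turned were Psmc2 at P30 under median scaling (0.0091), and Psmd8 for age in Mef2c-het without Mef2c-het P30 array 5 (0.19) and for genotype at P30 without it (0.37) or with the replicate block (0.21). Over all arrays left out in turn, these Psmd8 differences ranged from -0.92 to 0.19 and from -0.75 to 0.37. With sex as a covariate the WT calls of Psmb5 (-0.20), Psmd10 (second probe, -0.26), Psmd14 (-0.40), Psme3 (0.16), the last probe of Psmb7 (-0.18) and both Psmb10 probes (0.25 and 0.22) were lost, among named probes, and the cause was not tested. In the larger array cluster alone Psmb5 rose in Mef2c-het (0.23, adjusted p = 0.0296, limma). Sex at P30 could not be fitted, as all arrays read as male. Signal over background limits Psmb8, Psmb9, Psmc6 and the first probe of Psme4. It also limits both probes of Psmd2, the first probes of Psmd11 and Psmd12 and the second probe of Psmd9.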
